A study of Caenorhabditis elegans with 4 samples.

Results

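The binding regions of PQM-1, a transcription factor with zinc fingers, on chromosome II of Caenorhabditis elegans are described here. The members are all rows of the deposited peak list on chromosome II except 2 wide neighbouring ones, which end at 11136318 and 11161066 and which the rule that defines the set leaves out. This gives 854 regions of 5803 in the whole list. All positions are on chromosome II of WormBase WS180, the build of the list. The other autosomes, I, III, IV and V, hold 3689 regions and serve as the comparison.

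The libraries came from L3 hermaphrodites of the strain OP201, grown at 20 °C and crosslinked with 2% formaldehyde. All of them carry the same genotype, unc119(ed3) with the integrated transgene wgIs201, which expresses PQM-1 fused to TY1, EGFP and FLAG tags. The transgene came from bombardment of an unc-119(ed3) strain, so the tagged protein is made beside whatever the endogenous pqm-1 gene makes. The labels list 2 anti-GFP ChIP libraries and 2 input DNA libraries, the ChIP made with a goat antibody against EGFP, and the deposited list combines them into 1 value per region. No value per library was analysed, so nothing below carries a replicate SD.

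As background, PQM-1 is known as a C2H2 zinc finger factor with a prominent role in the intestine, where it acts beside the FOXO factor DAF-16 in the insulin pathway. The 2 factors are known to enter the nucleus under opposite conditions, PQM-1 when insulin signalling is active. The autosomes of this worm have a gene-dense centre with little recombination, flanked by arms that recombine more and hold more repeats. The pqm-1 gene itself lies on chromosome II. Genes at the regions, gene density and DNA sequence on the build of the list were not analysed here.

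Each listed region carries a q-value from PeakSeq, which compares ChIP tags with a control scaled to them. The list resolves into whole tag numbers, and 45.1% of the 12873 regions tested are listed. That these are ChIP and scaled control tags is inferred from how PeakSeq tests a region, since the list does not name them, and every ratio and tag density below rests on it. All 854 regions of II gave a single pair of ChIP and scaled control tags. The median region of II held 84 ChIP tags against 29 scaled control tags. Nearly all regions of II, those between the 5th and 95th percentiles, held 39 to 244.4 ChIP tags. Intervals on region densities, shares, ratios of counts and single-region ratios below are 95% intervals for counting error only. Those of medians, also of median ratios and median tag densities, are 95% intervals that reflect the spread between regions instead. The interval of a single-region ratio takes the scaled control tags as counted reads and leaves out the error of the scaling. Intervals over several regions treat regions as independent, and neighbouring regions are not.

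The density of regions on chromosome II lay within the range of the other autosomes, while its parts differed from each other. It held 55.9 regions per Mb over 15.3 Mb, against 54.9 per Mb on the other autosomes together, a ratio of 1.02 (95% interval 0.94 to 1.10). The single values of the other autosomes were 36.0 on I, 61.4 on III, 59.99 on IV and 59.93 on V, so that II had rank 4 of 5 from the highest. Regions covered 2.58% of II, against 1.83% to 2.75% of the other autosomes. Chromosome II made up 15.2% of the listed length of the genome and 14.7% of the listed regions. One chromosome against 4 allows no p below 0.2 in an exact one-sided permutation over chromosomes. The order of the autosomes is therefore given as a description, without a test.

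The q-values of the members ran from 5.08e-92 to 0.00961. A q-value under 1e-10 was found in 225 of the 854 regions of II, or 26.3% (95% interval 23.4 to 29.4). The background over the whole list was 29.3%, and the other autosomes had 29.6% together, with 24.3% on I, 26.3% on III, 32.2% on IV and 32.0% on V. The share on II thus lay close to the background and between those of the other autosomes. Chromosome II held 13 of the 100 lowest q-values of the list and 143 of the 1000 lowest, close to its 14.7% of all regions.

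**Figure D1:**
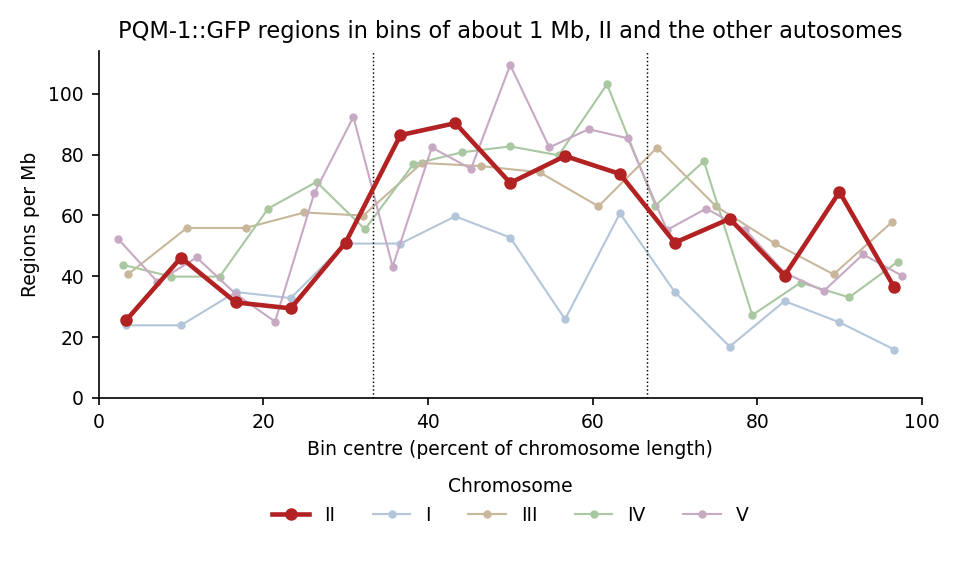
Regions per Mb (vertical axis) in equal bins of about 1 Mb against the position of the bin as a percent of chromosome length (horizontal axis). The thick line is II, the thin lines are the other autosomes, and dotted lines mark the borders of the centre. On II the 5 bins of the centre lie between 70.7 and 90.4 per Mb, and all 10 outer bins lie below them.

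The chromosome was divided by region midpoint into a left arm, a centre and a right arm, 3 parts of 5.09 Mb each. The names stand for equal parts of the length, and the borders of recombination or gene density were not used to set them. The left arm held 187 regions, the centre 408 and the right arm 259. These are 36.7 per Mb on the left (95% Poisson interval 31.7 to 42.4), 80.1 per Mb in the centre (72.6 to 88.3) and 50.9 per Mb on the right (44.9 to 57.5). The intervals of the 3 parts did not overlap. The centre held 47.8% of the regions of II (95% interval 44.4 to 51.2). Covered length followed the same order, with 1.53% of the left arm, 3.94% of the centre and 2.25% of the right arm inside a region.

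The density in 1 Mb bins rose at the left border of the centre, where a bin edge coincides with the division into parts. In windows of 100 kb the rise there was less sharp. The windows starting at 4900001, 5000001, 5100001 and 5200001 held 8, 7, 10 and 11 regions. The bin that ends at 5090695 held 52 regions (51.1 per Mb) and the next held 88 (86.4 per Mb). The 5 left bins held 26, 47, 32, 30 and 52 regions in order along the chromosome. The 5 bins of the centre held 88, 92, 72, 81 and 75. The 5 right bins held 52, 60, 41, 69 and 37, so that the bin from 13235808 to 14253946, at 67.8 per Mb, came close to the lowest bin of the centre at 70.7 per Mb. The fullest bin, from 6108835 to 7126973, held 92 regions but 15 with a q-value under 1e-10. The bin before it held 88 regions with 33 under that value, the most of any bin of II. Over all regions of II, 26.3% were under that value.

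The layout was then set beside the other autosomes. The centre of II held 80.1 regions per Mb and its arms 43.8 per Mb, a ratio of 1.83 (95% interval 1.60 to 2.10). The same ratio was 1.72 on I, 1.22 on III, 1.65 on IV and 1.64 on V. The value of II was the highest of the 5, but its interval overlapped those of I, IV and V and did not overlap that of III (1.06 to 1.40). The order also depends on the q-value limit and on where the arms end. Among regions with a q-value under 1e-10, the ratio was 1.95 on II, against 2.13 on I, 1.24 on III, 1.70 on IV and 1.97 on V. With the centre taken as the middle 50% of the chromosome, the ratio was 1.73 on II, against 1.78 on I, 1.44 on III, 1.81 on IV and 1.83 on V.

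The arms of II differed from each other. The right arm held 259 regions and the left arm 187, a ratio of 1.39 (95% interval 1.14 to 1.68). On the other autosomes the same ratio of right to left was 0.75 on I, 1.09 on III, 0.88 on IV and 0.95 on V. The interval of II overlapped that of III (0.92 to 1.30) and none of the intervals of I (0.59 to 0.95), IV (0.74 to 1.04) or V (0.81 to 1.10). Among regions with a q-value under 1e-10, the right arm of II held 75 and the left arm 39, a ratio of 1.92 (95% interval 1.29 to 2.91). The other autosomes had ratios of 0.64, 0.99, 1.19 and 1.02 for I, III, IV and V under that limit. With each arm taken as the outer 25%, the ratio of II was 1.504, against 0.78 to 1.09 on the other autosomes.

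**Figure D2:**
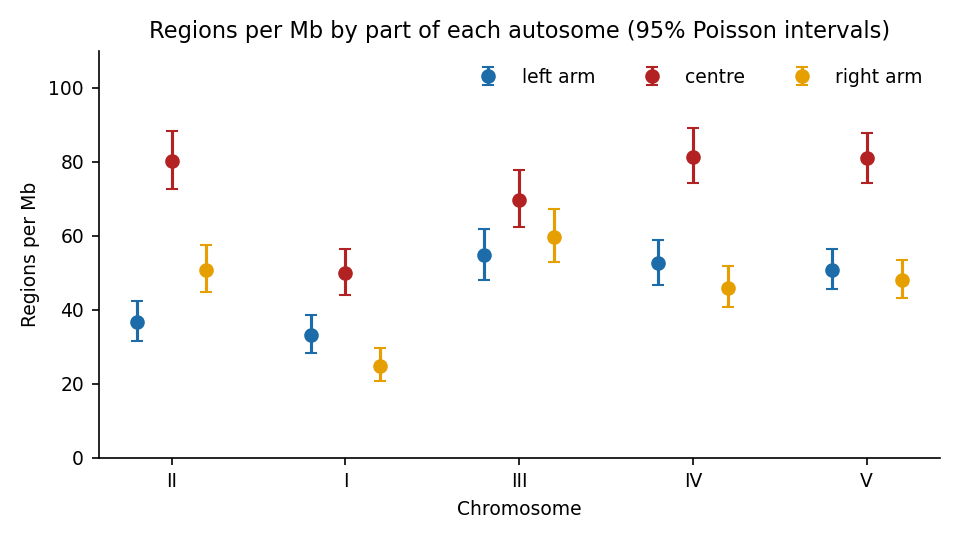
Regions per Mb (vertical axis) in the left arm, centre and right arm of II and of the other autosomes, with 95% Poisson intervals as bars. The left arm of II, at 36.7 per Mb, lies below its right arm at 50.9 per Mb, and both lie below its centre at 80.1 per Mb.

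The tags behind the regions were compared between the parts. Among regions 300 to 500 bp wide, the scaled control had a median of 67.1 tags per kb on the left (95% interval 62.7 to 74.7, 112 regions), 75.6 in the centre (71.8 to 79.5, 186 regions) and 72.9 on the right (70.1 to 78.4, 125 regions). The median ChIP density of the same regions was 211 tags per kb on the left (196 to 221), 235 in the centre (223 to 247) and 234 on the right (225 to 249). The intervals of ChIP density on the left did not overlap those of the centre and the right, while those of the control overlapped. Neither value bears on stretches where no region was listed, and the part of the control or of read mappability in the density of regions was not tested. Over all members, the ratio of ChIP to scaled control had a median of 2.82 on the left (95% interval 2.67 to 3.05), 2.72 in the centre (2.60 to 2.84) and 2.81 on the right (2.60 to 2.93). Across the 15 bins of II, Spearman's rho was -0.07 between the density of regions and their median ratio, as a description over bins that share libraries. The 3 parts thus differed in how many regions they held, with median ratios whose intervals overlapped.

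Against the other autosomes, the regions of II had a median ratio of 2.78 (95% interval 2.69 to 2.85) and quartiles of 2.25 and 3.63. The other autosomes had medians of 2.45 on I, 2.88 on III, 3.17 on IV and 3.08 on V. The scaled control in regions of 300 to 500 bp was 72.9 tags per kb on II (70.6 to 76.1) and 68.3 on the other autosomes together (67.1 to 69.4). The ChIP density was 229 tags per kb on II (222 to 237) and 224 on the others (221 to 227). The control was scaled by the caller, and unequal scaling between chromosomes and unequal input DNA cannot be told apart. On II, 80 regions, or 9.37% (95% interval 7.50 to 11.5), had a ratio of at least 5, against a background of 11.3% over the whole list and 5.72%, 8.99%, 16.8% and 13.6% on I, III, IV and V. A ratio under 2 was found in 12.3% of the regions of the centre of II and in 7.17% of those of its arms. In the other autosomes the centre had 18.8%, 9.38%, 4.85% and 5.50% under 2, and the arms 22.9%, 10.9%, 4.36% and 6.24%, in the order I, III, IV and V.

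The 3 leading regions of the left arm were compact, with high ratios, and 2 of them had no neighbour within 8 kb. The region of lowest q-value on II lay there, at 2378327 to 2379123. Within 797 bp it had 478 ChIP tags and 41 scaled control tags, and with a ratio of 11.7 (95% interval 8.47 to 16.5) and a q-value of 5.08e-92 it stood in row 2 of the list. Its neighbours were 42.4 kb away on the left and 33.7 kb on the right. The next in the left arm, at 1851731 to 1852111, spanned 381 bp with 254 against 16 tags, and its ratio of 15.9 (95% interval 9.59 to 28.2) was the highest of II. After it, the region at 3786505 to 3786939 held 276 against 24 tags in 435 bp, a ratio of 11.5 (7.57 to 18.3), with a neighbour at 1.49 kb on the right and none for 33.2 kb on the left. The 2 ratios that come next after the highest of II were also in the left arm. They were 12.3 at 915209 to 915652 and 12.1 at 1103654 to 1104115, with 245 and 241 ChIP tags against 20 scaled control tags each.

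These 5 regions put the highest ratios of the chromosome in its emptiest part. This was not particular to II. Over regions of any width, the highest ratio was 16.0 on the left of I, 12.6 on the left of III, 14.2 on the right of IV and 17.0 on the right of V. The centres of these chromosomes reached 6.86, 8.80, 12.0 and 15.5. On III, IV and V, though not on I, that arm was also the emptiest part. Among regions of II of 100 bp or more, 8 of the left arm, 6 of the centre and 1 of the right arm had a ratio of at least 8. That limit was chosen after the values were seen. No share over the whole list was taken at it, so these counts are a description only. At a ratio of at least 5, the share over the whole list was 11.3%. The 8 on the left were 268 to 797 bp wide. Their share of the left arm rests on few regions, and a ratio of at least 5 was found in 11.2% of the left arm (95% interval 7.09 to 16.7), 9.31% of the centre (6.68 to 12.6) and 8.11% of the right arm (5.09 to 12.1), with overlapping intervals. By contrast, a q-value under 1e-10 was found in 20.9% of the left arm (15.3 to 27.4), 27.2% of the centre (22.9 to 31.8) and 29.0% of the right arm (23.5 to 34.9), where the intervals overlap as well. Of the 10 lowest q-values of II, 5 lay on the left, 4 in the centre and 1 on the right. Of the 50 lowest, 11 lay on the left, 33 in the centre and 6 on the right. Of all 854 regions of II, 187 lay on the left, 408 in the centre and 259 on the right.

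In the centre, the lowest q-value belonged to the region at 8382717 to 8383526. It spanned 810 bp with 379 ChIP tags and 51 scaled control tags, which gives a ratio of 7.43 (95% interval 5.54 to 10.2). A stretch of 99.3 kb without any region ended at its left edge, while the next region on its right began after 690 bp. It is followed at 6026578 to 6027099 by a region of 522 bp with 321 against 37 tags, a ratio of 8.68 (6.16 to 12.5). Then the region at 9500754 to 9501431 spanned 678 bp with 298 against 36 tags, a ratio of 8.28 (5.85 to 12.0). All 3 had a neighbour within 0.7 kb on one side.

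On the right, the lowest q-value belonged to a region of 952 bp at 13297968 to 13298919, with 344 against 36 tags and a ratio of 9.56 (95% interval 6.77 to 13.9). The other leading regions of the right arm were broad and of lower ratio. The region at 10388847 to 10390696 spanned 1850 bp with 461 against 125 tags, a ratio of 3.69 (3.02 to 4.53). The region at 10556327 to 10557588 spanned 1262 bp with 361 against 101 tags, a ratio of 3.57 (2.86 to 4.50). The intervals of these 2 ratios did not overlap those of the 3 leading regions of the left arm, while that of the region of 952 bp did. All were picked by q-value, which rests on the same tags, so this describes the named regions and not the arms. The q-value falls with the number of tags, so a broad region of modest ratio and a compact one of high ratio can have similar q-values.

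**Figure D3:**
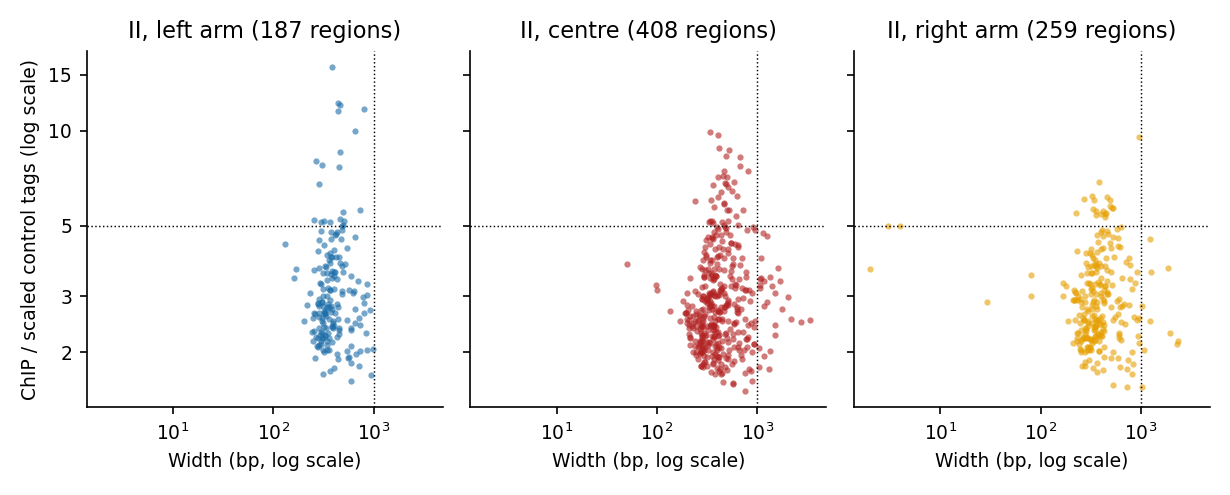
Ratio of ChIP to scaled control tags (vertical axis, log scale) against region width in bp (horizontal axis, log scale) for the 854 regions of II, 1 panel for each part. Dotted lines mark 1 kb and a ratio of 5. The left panel has 0 regions to the right of 1 kb and holds the 3 highest ratios, and the centre panel holds 27 of the 37 broad regions.

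The widths of the members had a median of 377 bp (95% interval 366 to 392) and quartiles of 301 and 513 bp. The other autosomes had a median of 380 bp together. The median was 372 bp on the left (346 to 394), 394 bp in the centre (371 to 413) and 362 bp on the right (350 to 385). The parts differed more in their widest regions. The upper quartile was 464.5 bp on the left, 554 bp in the centre and 489 bp on the right. Width went with the q-value, with a Spearman's rho of 0.61 between width and -log10 q over the 854 regions, and hardly with the ratio, with a rho of 0.10. Regions are not independent replicates, and a wider region gathers more tags.

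Split by q-value into 4 groups of near equal size, the members had median widths of 517, 384, 354 and 281 bp from the lowest q-values to the highest. Their median ratios were 4.43, 3.13, 2.47 and 2.17, and their median ChIP tags 166, 92.5, 72 and 52. When each part was split into 4 by its own q-values, the group of lowest q-values had a median width of 454 bp on the left, 578 bp in the centre and 519 bp on the right, with median ratios of 4.71, 4.51 and 4.26. These groups end at different q-values, 5.54e-10 on the left, 4.42e-12 in the centre and 8.22e-12 on the right. At the other end, 24 regions of II were under 200 bp wide, with a median q-value of 0.00448. The narrowest, at 11451429 to 11451430, spanned 2 bp and held 22 against 6 tags, with a ratio of 3.67 whose interval ran from 1.44 to 11.1. The highest q-value of II, 0.00961, belonged to the region at 6776523 to 6776935, with 63 against 36 tags and a ratio of 1.75 (1.14 to 2.71).

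Broad regions of 1 kb or more numbered 37 on II, or 4.33% of its regions, against 4.31% on the other autosomes together. They were shared unevenly between the parts, with 0 of 187 on the left, 27 of 408 in the centre (6.62%, 95% interval 4.41 to 9.48) and 10 of 259 on the right (3.86%, 1.87 to 6.99). On the left, the count of 0 allows a share of up to 1.60% by the limit of 3 counts, and the exact interval reaches 1.95%, which overlaps that of the right arm and not that of the centre. Each of the 8 arms of the other autosomes held broad regions, from 4 of 125 on the right of I to 21 of 354 on the left of V. The shares in these arms ran from 2.39% to 5.93%. Among all 37 broad regions of II, 30 had a q-value under 1e-10, or 81.1%, beside the 29.3% of all listed regions of any width. The same share of broad regions was 56.3% on I, 83.9% on III, 89.2% on IV and 83.1% on V. The ratios of the 37 on II ran from 1.56 to 4.76 with a median of 2.79, and these regions held between 160 and 682 ChIP tags.

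The widest regions of II lay next to each other in several places. The widest, at 5336411 to 5339753, spanned 3343 bp with 682 ChIP tags and 270 scaled control tags, for a ratio of 2.53 (95% interval 2.19 to 2.92). The next widest ended 2.00 kb to its left. It lay at 5331696 to 5334406, with a width of 2711 bp and a ratio of 2.49 (2.08 to 2.98). Another broad region, at 5329782 to 5330863, with a ratio of 3.43 (2.70 to 4.40), stood 0.83 kb further left. Together these 3 lie in the first of the 5 bins of the centre.

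A similar group stood near the border of the right arm. The regions at 10541911 to 10544217 and 10547653 to 10549984 spanned 2307 and 2332 bp and had ratios of 2.12 (95% interval 1.75 to 2.57) and 2.17 (1.82 to 2.60). Broad regions at 10551558 to 10552622 and at 10556327 to 10557588 followed, so that 4 of the 10 broad regions of the right arm lay in this group. It was preceded by a stretch of 55.7 kb without any region. Another of the 5 widest regions, at 8743028 to 8745203, spanned 2176 bp with a ratio of 2.55 (2.11 to 3.10), with another broad region at 8737942 to 8739323. In all, 15 of the 37 broad regions of II had another broad region within 5 kb, or 40.5%. The same share was 28.1% on I (9 of 32), 19.4% on III (6 of 31), 16.2% on IV (6 of 37) and 22.0% on V (13 of 59). The distance of 5 kb was chosen after the regions were seen, and the difference between chromosomes was not tested.

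Close neighbours were concentrated in the centre. On II, 134 regions had another midpoint within 1 kb, or 15.7% (95% interval 13.3 to 18.3), against 15.9% on the other autosomes together. The share was 6.95% on the left (3.75 to 11.6), 22.3% in the centre (18.4 to 26.7) and 11.6% on the right (7.95 to 16.1). The interval of the centre overlapped neither arm's. On the other autosomes the centre had 9.16%, 20.0%, 20.5% and 22.9% on I, III, IV and V, and the arms 6.16%, 13.9%, 13.8% and 15.2%. A denser part holds more neighbours at any distance, and this was not adjusted for. The smallest distance between midpoints on II was 504 bp. On II, 24.6% of the regions with such a neighbour and 26.7% of those without had a q-value under 1e-10, and their median ratios were 2.74 and 2.79.

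Clusters were defined as runs of at least 4 regions with successive midpoints at most 2 kb apart. Chromosome II had 13 clusters with 58 regions, or 0.85 per Mb, against 0.27 on I, 1.02 on III, 1.26 on IV and 1.20 on V. Of the 13, 1 lay on the left, 10 in the centre and 2 on the right. The largest held 6 regions each. One of these, at 5747333 to 5754465, spanned 7.13 kb with 684 ChIP tags against 143 scaled control tags, and its regions had ratios from 2.25 to 9.67. The other, at 7232490 to 7238618, spanned 6.13 kb with ratios from 2.43 to 5.18. A cluster of 5 regions at 8382717 to 8388491 began with the region of lowest q-value in the centre. In it, 4 of the 5 regions had a q-value under 1e-10, beside 26.3% of all regions of II. The ratios of this cluster ran from 3.05 to 8.29. Another cluster of 5, at 8737942 to 8745203, contained 2 broad regions, with ratios from 1.72 to 3.28.

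The only cluster of the left arm, at 3990041 to 3993328, held 4 regions with ratios from 2.38 to 3.00. None of these 4 had a q-value under 1e-10, and the lowest was 1.00e-05. Both clusters of the right arm, at 13668755 to 13674046 and 13979981 to 13983227, also held 4 regions each, 1 of them with a q-value under 1e-10. Over all regions of II, 26.3% had such a q-value, and 29.3% over the whole list. Counts of 0 or 1 in a run of 4 are near these shares and set no cluster apart. The lowest q-value of a cluster ranged from 1.33e-60, at 8382717 to 8388491, to the 1.00e-05 of the left arm.

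In windows of 100 kb, II had a median of 5 regions and a highest count of 19. Windows with 10 or more regions were 1 of 51 on the left, 19 of 51 in the centre and 6 of 50 on the right. The fullest window, 8000001 to 8100000, held 19 regions, of which 4 had a q-value under 1e-10. The next were 9100001 to 9200000 with 18, 6300001 to 6400000 with 17, 11400001 to 11500000 in the right arm with 16, and 6800001 to 6900000 with 15. In these 5 windows between 2 and 5 regions had a q-value under 1e-10, beside 26.3% of all regions of II. Windows without any region numbered 5 of 152 on II, or 3.29%, against 13.3% on I and 3.35% to 4.38% on III, IV and V. The 5 were 2 on the left and 3 on the right, with 0 in the centre.

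**Figure D4:**
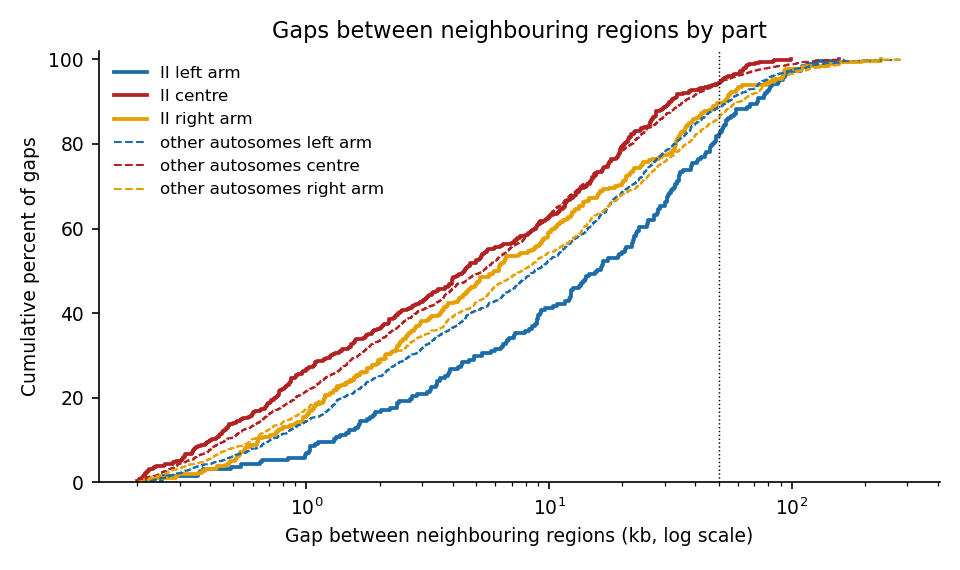
Cumulative percent of gaps (vertical axis) up to a given length in kb (horizontal axis, log scale) between neighbouring regions, by part of the chromosome. Solid lines are II, dashed lines the other autosomes together, and the dotted line marks 50 kb. On II the median gap is 15.7 kb on the left, 4.48 kb in the centre and 6.05 kb on the right.

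Gaps between neighbouring regions of II had a median of 6.59 kb, and the medians of the other autosomes ran from 5.19 to 11.2 kb. The median gap was 15.7 kb on the left, 4.48 kb in the centre and 6.05 kb on the right. Quartiles of the gaps were 3.77 and 38.7 kb on the left, 0.90 and 17.5 kb in the centre and 1.59 and 24.1 kb on the right. The left arm thus had the longest gaps at the median and at both quartiles.

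Peak-free stretches of 50 kb or more numbered 84 on II and made up 42.9% of its length. Only stretches between neighbouring regions were counted, on all chromosomes. The left end of II, where the first region starts at 50866, was therefore not counted. On the other autosomes such stretches made up 59.3% of I, 40.4% of III, 39.9% of IV and 41.7% of V. They took 52.1% of the left arm, 28.7% of the centre and 48.0% of the right arm, in 34, 23 and 27 stretches. The longest ran from 12189679 to 12423186 in the right arm and spanned 233.5 kb. The next were 194.6 kb at 14600205 to 14794789 on the right, 157.1 kb at 3062485 to 3219613 on the left, 157.0 kb at 10694026 to 10851041 on the right and 136.5 kb at 14822719 to 14959217 on the right. The stretches of 194.6 and 136.5 kb lie near each other. None of the 11 stretches of 100 kb or more lay in the centre, where the longest, at 8283432 to 8382716, spanned 99.3 kb. On the other autosomes the longest stretch of the centre was 155.3 kb on I, 123.8 kb on III, 144.6 kb on IV and 164.5 kb on V. The longest stretch of any part was 283.5, 215.6, 227.9 and 238.0 kb on I, III, IV and V.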

How the data were processed

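Anti-GFP ChIP DNA and input DNA of PQM-1::GFP larvae were sequenced, with 2 libraries of each per the labels. The authors reduced them to 1 combined peak list, so no sample enters by itself. Per the file headers, positions refer to WormBase WS180 and PeakSeq made the peaks, each with a deposited q-value. The sources used here give no aligner, no PeakSeq version, no read depth and no account of how replicates were merged.

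The members, lists and limits were chosen with earlier results of these data known. Each q-value was taken to be a binomial p-value multiplied by the regions tested and divided by the row number. The number 12873, searched up to 100000, matched 100% of 200 sampled peaks (tolerance 1e-11 on the natural log). Whole ChIP and scaled control tags followed for 5802 of 5803 peaks. On 2000 peaks simulated with the same formula and the same 12873, 99.9% of pairs were recovered. The simulation covers only the way back from a q-value to a single pair, and cannot show what the numbers of the pair are. Scaled control tags are rounded by the caller and are no raw reads.

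Chromosome length is the largest listed coordinate, and parts are equal and assigned by midpoint. The 2 regions left out were not members but still bounded peak-free stretches. Shares and ratios carry exact Clopper-Pearson intervals, densities exact Poisson intervals and medians exact order-statistic intervals, all at 95%. For the ratio of a single region, the interval takes scaled control tags as counted reads, so it is not exact for the reads themselves. No test was run, since 1 list gives no replicates. Regions were named by rank of q-value in each part, ratio, width, cluster size, stretch length and window count, and others were chosen after their values were seen. Alternatives put the 2 left-out regions back or changed the q-value limit, the width minimum, the joining of neighbours, the borders and the distances. Python 3.11.15, numpy 2.4.6, scipy 1.17.1 and matplotlib 3.10.9 were used. No genome or annotation of the same build was used here, so no sequence and no gene at a region is given.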

Additional observations from a re-analysis of the deposited data

Results flagged for a closer look

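The 2 regions left out of the set were no members. They entered the shares of the whole list and the alternatives that put them back, and they bounded gaps and peak-free stretches of the right arm. Both held more ChIP than scaled control tags. The wider, which ends at 11161066, had a ratio of 1.22 over 22626 bp (95% interval 1.18 to 1.25). Its neighbour, which ends at 11136318, had a ratio of 1.27 over 3837 bp (1.17 to 1.38). Their control held 384 and 291 tags per kb, against a median of 72.9 in members of 300 to 500 bp, and the lowest ratio of any member was 1.51.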

How the results depend on the processing

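Of 32 alternatives, 23 left the value within the interval of the main one, or a count within the allowed factor, and 9 moved it. Restricting all chromosomes to q-values under 1e-10 moved the density of II relative to the other autosomes to 0.91, the ratio of right to left arm to 1.92, the share with a neighbour within 1 kb to 0.889%, the median width to 507 bp and the median ratio to 4.38. The limit keeps the regions of lowest q-value by construction, and the causes of these changes were not tested. The density ratio changed side of 1, with an interval (0.78 to 1.05) that includes 1. A distance of 500 bp gave 0% of regions with a neighbour and one of 2 kb gave 42.7%. The smallest gap between neighbouring regions was 200 bp on II and 201 to 211 bp on the other autosomes. The list thus leaves little room for midpoints within 500 bp, and the 0% carries little information. Stretches of 100 kb or more numbered 11. Regions of 300 to 500 bp had a median ratio of 2.96. The ratio of centre to arms stayed between 1.70 and 1.95 under all 5 alternatives run for it, and that of right to left arm between 1.35 and 1.92. No paired analysis was possible because both replicates are combined in 1 list, which also prevents leaving one out. Depth per library is unknown, and regions of few tags have wide intervals.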
